A study of Mus musculus with 6 samples.

Results

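The C/EBP transcription factor family was examined in injured mouse quadriceps muscle through the 5 genes Cebpa, Cebpb, Cebpd, Cebpg and Cebpz, taken by their symbols. All 5 of them are listed in the authors' deposited table, out of 14016 genes in all. Bulk RNA sequencing of RNA with a poly(A) tail was performed on muscle at day 7 after volumetric muscle loss with no implant, from 3 WT (C57BL/6) mice and 3 GATA-1 mutant mice. The mutants are ΔdblGATA mice, which carry a deletion in a regulatory element of the transcription factor gene Gata1 in all of their cells and have no eosinophils. The study's methods describe young adult female WT mice, and each muscle was a mixture of muscle fibres, infiltrating immune cells and stroma.

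The level given here is the authors' mean of log2 CPM (read counts scaled to library size, here with TMM normalization) over the 6 muscles of both genotypes, so a level describes WT and GATA-1 mutant muscle together. Values per mouse were not analysed here, no spread between animals is given with any level, the depth of each sample is unknown, and no comparison of the genotypes was made. To set genes beside each other, a level was divided by the length of the gene's longest coding transcript and is then a level per kb. In bulk muscle, fewer cells of a type and less RNA per cell cannot be told apart.

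C/EBP proteins bind DNA through a basic region and pair through a leucine zipper. Cebpa, Cebpb and Cebpd encode activators that work in granulocyte and macrophage formation, in the acute-phase response and in the formation of fat cells, whereas the product of Cebpg lacks an activation domain and works as a partner of other zipper proteins, among them ATF4. Cebpz shares the family's name through CCAAT binding, but its product has no leucine zipper and belongs to a family of nucleolar proteins of ribosome assembly. In injured muscle, Cebpb is known as a target of CREB in macrophages, where it drives genes of alternative activation during repair.

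The start regions of 3 members in RefSeq are shown because CREB is known to act on the promoter of Cebpb, and because they show how differently the family's genes are built. The letters are the 250 bases before the annotated start, 5′ to 3′ on the gene's strand, in GRCm38.p6, and capitals mark 3 motifs, each searched on both strands. The half-site of a CRE, the site of CREB, was searched as TGACG. The TATA box was searched as TATAAA and the CCAAT box by the letters of its name.
Cebpb, chr2:167688665-167688914, plus strand: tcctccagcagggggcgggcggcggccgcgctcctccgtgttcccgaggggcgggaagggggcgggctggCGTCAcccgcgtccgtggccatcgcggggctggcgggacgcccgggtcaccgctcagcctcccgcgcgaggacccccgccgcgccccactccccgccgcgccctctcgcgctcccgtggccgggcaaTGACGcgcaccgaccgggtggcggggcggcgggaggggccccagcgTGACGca
Cebpa, chr7:35119043-35119292, plus strand: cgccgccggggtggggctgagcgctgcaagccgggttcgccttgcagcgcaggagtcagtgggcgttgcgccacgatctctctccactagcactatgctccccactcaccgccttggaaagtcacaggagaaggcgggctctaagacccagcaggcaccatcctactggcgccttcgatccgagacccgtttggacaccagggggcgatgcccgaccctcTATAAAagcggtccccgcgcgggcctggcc
Cebpg, chr7:35056567-35056816, minus strand: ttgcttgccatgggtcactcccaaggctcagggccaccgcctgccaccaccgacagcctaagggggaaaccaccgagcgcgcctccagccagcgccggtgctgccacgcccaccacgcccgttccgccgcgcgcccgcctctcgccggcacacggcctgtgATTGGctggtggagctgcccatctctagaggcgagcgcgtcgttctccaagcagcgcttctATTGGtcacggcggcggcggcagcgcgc

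In the window from 250 bases before to 50 after the start, Cebpb held 3 CRE half-sites, which begin at -180, -53 and -7. It also held 5 matches of the GC box (GGGCGG), of which those at -238 and -234 overlap. A TATA box match began at 22 bases after its annotated start, outside the printed letters. Cebpa held a TATA box at -30 and none of the other motifs searched. Cebpg held CCAAT boxes at -89 and -28 and a GC box at 45, and no TATA box. Of 32851 RefSeq windows of the same length, 20.8% held a CRE half-site, 13.6% a TATA box, 37.4% a CCAAT box and 35.7% a GC box. These shares were not matched for G and C content. The C/EBP palindrome TTGCGCAA was found in none of the 3 windows and in 0.183% of all. The Cebpb window was also rich in G and C, at 80.7% against a median of 52.7%, and 99.3% of windows had as many CG pairs or fewer.

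With the longest coding transcript, Cebpb and Cebpa had the highest levels per kb of the family, whereas with the median transcript Cebpz and Cebpg were above them. Cebpb (ENSMUSG00000056501.3) had a mean level of 5.56 log2 CPM in the authors' column and, with a transcript of 1504 nt, a level of 4.97 log2 CPM per kb. Cebpa (ENSMUSG00000034957.10) had a mean level of 6.26 log2 CPM and, over 2626 nt, a level of 4.87 log2 CPM per kb. Among the 13954 genes with a known length, 88.1% were at or below Cebpb (95% exact binomial interval over genes 87.6 to 88.7%) and 87.2% at or below Cebpa. With the median transcript length these shares were 74.0% and 74.5%, a move far wider than the interval, which covers neither animals nor the choice of length. The difference between the pair, 0.10 log2 units per kb, has no replicate error here and turns to -0.03 when the median transcript length of each gene is used, so their order was not resolved.

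Cebpg (ENSMUSG00000056216.9), the partner without an activation domain, had a mean level of 5.72 log2 CPM. Over its transcript of 4709 nt this was 3.49 log2 CPM per kb, with 70.7% of genes at or below it. Cebpz (ENSMUSG00000024081.9), the nucleolar protein, had a mean level of 4.60 log2 CPM and 2.57 log2 CPM per kb over 4070 nt, with 55.2% of genes at or below. Cebpd (ENSMUSG00000071637.5), an acute-phase activator, had a mean level of 4.18 log2 CPM and 2.28 log2 CPM per kb over 3746 nt, next to the median of 2.28 for all genes, with 6973 genes above it. From Cebpb to Cebpd the levels per kb spanned 2.69 log2 units, a ratio of 6.46.

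**Figure D1:**
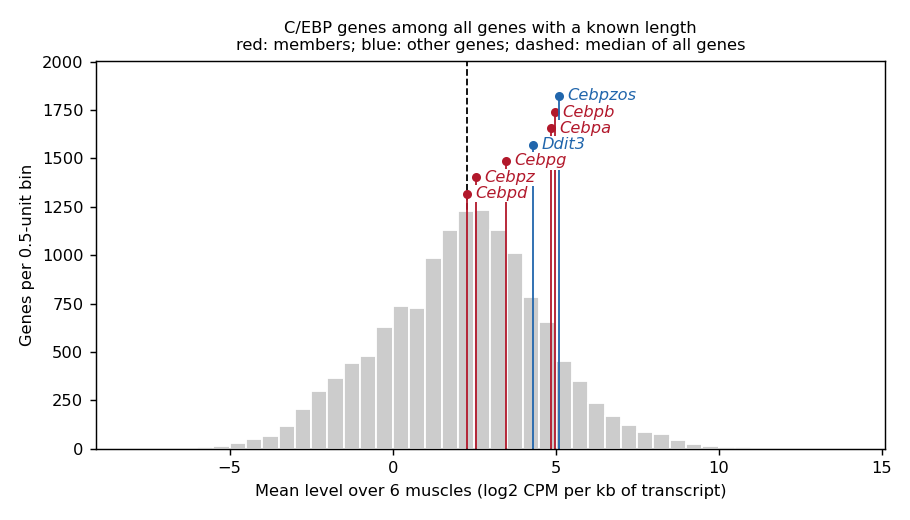
The histogram counts genes by mean level over the 6 muscles, in log2 CPM per kb of transcript, and each vertical line marks a gene of the family (red) or another gene (blue), its height serving only to part the names. Cebpd stands at the median of all genes (dashed), Cebpz and Cebpg above it, and Cebpa and Cebpb near 5.

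The order of the whole family changed with the transcript length that was chosen. With the median length of each gene's transcripts, Cebpz came first at 5.51 log2 CPM per kb and Cebpg next at 5.39. Cebpa followed at 5.00 and Cebpb at 4.97. This order rests on median transcripts of 530 nt for Cebpz and 1262 nt for Cebpg, against longest coding transcripts of 4070 and 4709 nt. Which transcripts the reads came from was not tested. Cebpd had the lowest level per kb of the family with the longest and with the median transcript, at 2.28 and 3.12 log2 CPM per kb. With the RefSeq length of 2260 nt its level was 3.01 log2 CPM per kb. No RefSeq length was used for Cebpg and Cebpz, so the family was not ordered by it. Cebpb stood between 4.96 and 4.97 log2 CPM per kb over these lengths, and as it has 1 annotated transcript its longest and median lengths are the same. Cebpa stood between 4.86 and 5.00 log2 CPM per kb.

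**Figure D2:**
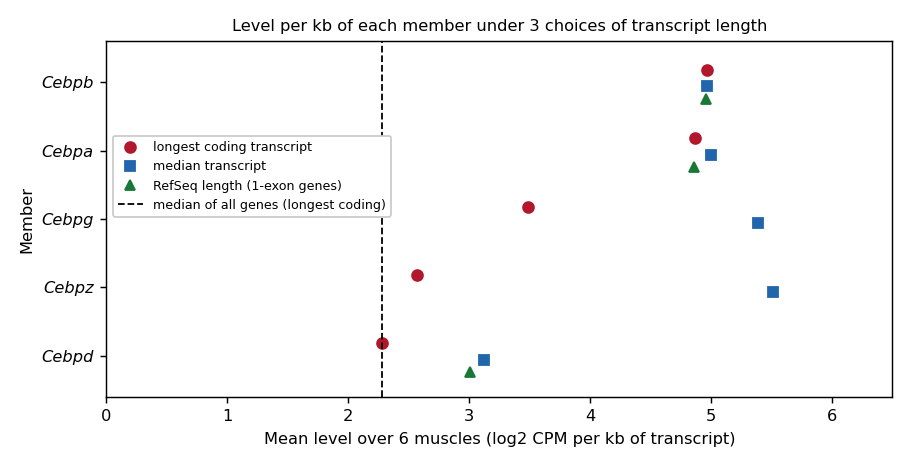
Each row is a member and each point its mean level in log2 CPM per kb. Levels were computed with the longest coding transcript (circles), the median transcript (squares) or, for the genes of 1 exon, the RefSeq length (triangles). The dashed line is the median of all genes with the longest coding transcript, so the squares cannot be read against it. Cebpa and Cebpb hardly move in level, whereas Cebpg, Cebpz and Cebpd shift to the right with the median transcript. With that length 46.4% of genes were at or below Cebpd.

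The members differ in how their genes are built, and the annotation bears on what the reads can tell. Cebpa, Cebpb and Cebpd each have 1 exon in GENCODE M21, as do 2.57% of the 13709 protein-coding genes ranked, while Cebpg has 2 exons and Cebpz 16. The transcripts of Cebpb and Cebpa are rich in G and C, at 67.2% and 62.6% against a median of 50.3% over 13218 coding genes, and those of Cebpg and Cebpz are poor in them, at 43.3% and 43.4%. Cebpa lies next to Cebpg on chromosome 7, with no protein-coding gene annotated between them.

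Reads of the members can also be shared with the transcripts of other genes. Where these overlap a member on the opposite strand, the sources used here do not say whether strand was used. Of the 31-base words in the longest coding transcript of Cebpb, 19.6% are also found in other genes' transcripts when both strands are read, 283 of the 289 shared words in the opposite-strand gene Tmem189. For Cebpd the share was 14.3%, all 533 shared words in the opposite-strand gene Spidr. It was 5.30% for Cebpz, of which 128 words are in AC118632.1, a gene not annotated as overlapping Cebpz. The others are in Cebpzos, whose exons on the other strand overlap those of Cebpz by 171 bases. The share was 0.847% for Cebpa and 0.812% for Cebpg. Cebpzos itself had a level of 5.11 log2 CPM per kb, above every member with the longest coding transcript. How far shared reads enter the levels of Cebpb, Cebpd and Cebpz was not tested.

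The other genes of the zipper family divided. Ddit3, which encodes the stress-induced partner CHOP, had a mean level of 4.14 log2 CPM and 4.31 log2 CPM per kb. Cebpe, which encodes the C/EBP of late granulocyte maturation, is not listed in the authors' deposited table. The study's methods describe keeping genes above 1 CPM in at least 3 samples. Listed means reach down to -4.08 log2 CPM, and how the filter was applied was not tested. Of 8 neutrophil granule genes, not all of them known targets of the Cebpe product, 4 are listed. The median level of these was -1.67 log2 CPM per kb, with 0 above the median of all genes. Lcn2, an iron-trapping protein that is also an acute-phase target, was highest of them at 1.39 log2 CPM per kb and Ngp lowest at -3.15, and Camp, Mmp8, Elane and Mpo are not listed. Markers of granulocytes were low as a group in this mean, and 3 of its 6 muscles were from mutants without eosinophils. For neutrophils 3 of 6 are listed, from -0.04 for Csf3r to 1.57 log2 CPM per kb for S100a8, and for eosinophils only Ear2 of 8, at 0.61 log2 CPM per kb.

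Zipper proteins known to pair with C/EBP proteins were listed throughout, 11 of 11 genes with a median level of 3.03 log2 CPM per kb, and 8 of them were above the median of all genes. Atf4, the stress-response factor that pairs with the product of Cebpg, was highest at 6.36 log2 CPM per kb, followed by Jund at 6.10 and Atf5 at 5.65. Batf and Batf3, lymphoid and dendritic cell factors, were lowest at 0.23 and 0.44 log2 CPM per kb. The 7 stress-response genes of ATF4 and C/EBP were all listed, with a median of 2.91 log2 CPM per kb, from Trib3 at -0.11 to Atf4, and Asns, the asparagine synthetase that ATF4 controls, was at 2.35.

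Of 14 signals and regulators upstream of the family, 12 are listed and 8 of these were above the median of all genes. Il6st, the signalling chain shared by receptors of the IL-6 family, was highest at 4.71 log2 CPM per kb, and Il6ra, the chain that binds IL-6, lowest at -1.02. Before division by length Csf3r was lowest, at 1.76 log2 CPM against 2.10 for Il6ra. The cytokine genes Il6 and Csf3 are not listed. Stat3, which carries the IL-6 signal to the Cebpd promoter, was at 3.93 log2 CPM per kb. Creb1, which encodes the CRE-binding factor CREB, was at 1.94 log2 CPM per kb, below the median of all genes, and has a long transcript of 8364 nt. Before division by length its mean level was 5.00 log2 CPM, above the median of 4.03 for all genes. Trib1 and Trib2, adaptors that direct the C/EBPα protein to degradation, were at 2.84 and 2.52 log2 CPM per kb, and the ligase gene Cop1, listed as Rfwd2, at 4.20. Spi1, the myeloid factor PU.1 that works beside C/EBP proteins, was at 3.09.

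Of 5 alternative activation genes, known targets in macrophages, 4 are listed, with a median of 1.71 log2 CPM per kb, and 2 of them were above the median of all genes. Mrc1, which encodes CD206, was highest at 3.30 log2 CPM per kb, Il13ra1 was at 2.38 and Msr1 at 1.03. Arg1, the arginase whose induction in macrophages requires Cebpb, was lowest at -1.09 log2 CPM per kb, where 10.9% of genes were at or below it, and Il10 is not listed. Inflammatory and acute-phase targets were low, with 6 of 9 listed, a median of -0.92 log2 CPM per kb and 0 above the median of all genes. Ccl2 was highest at 1.48 log2 CPM per kb and Saa3 lowest at -1.66, while Il6, Tnf and Cxcl1 are not listed.

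All 6 adipogenic genes are listed, with a median of 4.01 log2 CPM per kb. As many were above the median of all genes as below it, 3 and 3. Fabp4, the fatty acid carrier, was highest at 9.30 log2 CPM per kb, followed by Lpl at 7.49 and Adipoq at 6.23. Pparg, the partner of Cebpa in fat cell formation, was at 1.78 and Plin1, the lipid droplet protein, lowest at -0.63 log2 CPM per kb. Fabp4 and Lpl are also known in endothelium and muscle. The nucleolar partners and CCAAT-box factors beside Cebpz were 6 of 6 listed, 5 of them above the median of all genes, with levels from 1.70 for Noc3l to 4.15 log2 CPM per kb for Nfyc, a subunit of the CCAAT-box factor NF-Y, and Noc2l, a nucleolar partner, at 4.04.

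**Figure D3:**
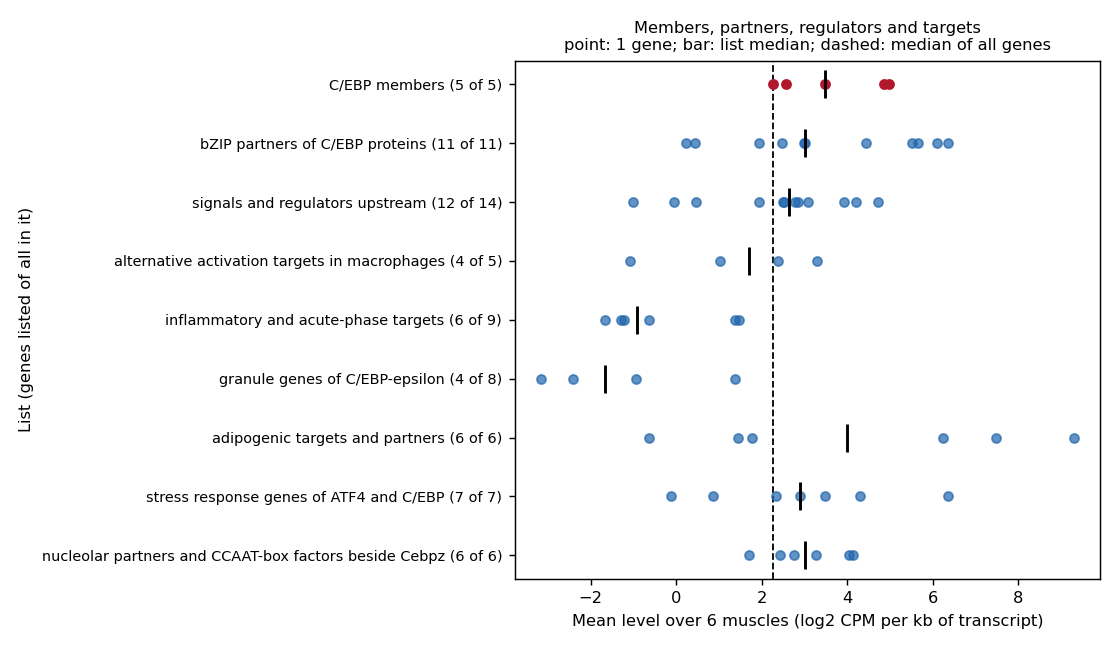
Each point is a listed gene by its mean level over the 6 muscles in log2 CPM per kb, each row a list with the number listed of its genes, the short bar the list's median and the dashed line the median of all genes. The 5 members lie at or right of the dashed line, while every listed inflammatory target and granule gene lies left of it.

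Markers placed these levels in muscle with macrophages and stroma. Of 7 muscle markers all are listed, and 6 were above the median of all genes. Acta1 was highest at 13.8 log2 CPM per kb and Pax7 lowest at 0.22. Of 6 macrophage markers all are listed, from Mertk at 1.68 to Lyz2 at 8.72 log2 CPM per kb, with Adgre1, listed as Emr1, at 3.01. Adipocyte markers were listed in 4 of 4, fibro-adipogenic progenitor markers in 4 of 4, with Col1a1 at 9.10 log2 CPM per kb, and endothelial markers in 3 of 3, with Pecam1 at 4.63. Which of these cells carried the transcripts of the 5 members was not tested.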

How the data were processed

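The study sequenced poly(A) RNA of quadriceps from 3 WT and 3 GATA-1 mutant mice at day 7 after injury. Reads were paired-end and were pseudoaligned by the authors using kallisto (version not given in the sources used here). As the study's methods describe it, CPM came from gene-level counts in edgeR, and genes not exceeding 1 CPM in 3 or more samples were discarded. TMM normalization and a limma fit followed. Listed means reach down to -4.08 log2 CPM, and how the filter was applied was not tested. The submitters' processing notes name GRCm39. The deposited log2 values used here are the authors' mean log2 CPM of each gene over the 6 samples. The same table holds 5 columns of the authors' own comparison of the genotypes (fold change, moderated t, p-value, adjusted p-value and log odds), which were not used. It holds no column per sample, so the limma fit planned here was not run, the depth per sample is unknown, and no error between animals is given.

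Of 14016 rows, 1 has no symbol. Lengths came from GENCODE M21 (GRCm38), whose build differs from the notes, for 13458 genes directly and 496 through older symbols, as the longest coding transcript (the longest of any kind where none is coding). The level per kb is the mean log2 CPM minus log2 of that length in kb. Percentages of genes at or below a level carry exact (Clopper-Pearson) 95% intervals from scipy 1.17.1, which cover neither animals nor reads. Word sharing used 31-base words. Promoter windows were RefSeq's (GRCm38.p6), found for 3 of the 5 members. Members and lists were chosen with earlier results of these data known. Named are the 5 members, Cebpe, Ddit3 and Cebpzos, and from each list the highest, the lowest, the absent and those with a role beside a member. Only the arithmetic of the level per kb and of the ranking was checked, with lengths taken as known. Whether the lengths used are those of the transcripts present was not tested. Settings tried were other transcript lengths, no scaling by length, protein-coding genes only and a minimum level.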

Additional observations from a re-analysis of the deposited data

How the results depend on the processing

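No paired analysis was possible because the table used holds 1 mean per gene over all samples. Leaving out each mouse, other normalizations and other pseudocounts were therefore not run. The median was taken anew in each setting. Among the 11855 of 13954 genes whose mean reached 1 log2 CPM, 3 members (Cebpa, Cebpb and Cebpg) were above the median of those genes. In the main setting 5 members were above the median of all genes. This minimum changed the median and not the levels of the members. The number above the median was 4 with the median transcript length and among protein-coding genes only, where Cebpd fell below it. With the longest transcript of any kind and with no scaling by length it was 5. The percent of genes at or below a member ranged over these settings (for Cebpa, Cebpb and Cebpd also the RefSeq length, which was chosen after seeing the data) from 74.5 to 88.1% for Cebpa, 74.0 to 89.0% for Cebpb, 41.2 to 62.9% for Cebpd, 65.6 to 80.7% for Cebpg and 47.3 to 80.9% for Cebpz. With the same minimum, 2 inflammatory targets and 1 granule gene stayed in their lists, against 6 and 4.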
